A study of Mus musculus with 10 samples.

Results

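Vkorc1l1, Vkorc1 and Ggcx encode the enzymes of the vitamin K cycle, and their transcripts were measured in the jejunum of mice that did or did not express the yeast NADH dehydrogenase NDI1 in the intestinal epithelium. The 3 genes are 3 of the 45707 rows of the normalized gene count table, found by gene symbol, and all 3 passed the filter on low values that left 14301 rows for testing. Vkorc1l1 was chosen by its own counts in these 10 libraries, as the mouse gene with the smallest p-value between the genotypes, so its values are given as a description with no test. Vkorc1 and Ggcx were added for their function and not for their values, though earlier results of these data were known. The test of the genotypes applies to them.

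There were 10 libraries, 1 per mouse, of 5 Vil-Cre controls and 5 animals with NDI1 (Vil-Cre:NDI1). Both genotypes carry Cre recombinase under the Villin promoter, which is active in the intestinal epithelium, from a Villin-Cre line on a B6 background. In Vil-Cre:NDI1 mice Cre also releases NDI1, a single-protein NADH dehydrogenase of yeast mitochondria, from behind a lox-stop-lox sequence at ROSA26. All were male littermates of 8 to 12 weeks that were fasted overnight for 16 to 18 h and given water by gavage, with no drug, and the jejunum was collected 1 h later. The tissue was flushed but not separated into cell types, so fewer cells of a type and less RNA per cell cannot be told apart.

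Vitamin K hydroquinone is the cofactor with which the gamma-glutamyl carboxylase, encoded by Ggcx, converts glutamate residues of client proteins to gamma-carboxyglutamate (Gla) in the endoplasmic reticulum, and each round leaves vitamin K epoxide. The epoxide and the quinone are reduced again by the vitamin K epoxide reductases VKORC1, the target of warfarin in the liver, and VKORC1L1, its paralogue, which is prominent outside the liver. Both are membrane proteins of the endoplasmic reticulum that take their electrons from thiol-disulfide exchange. The intestine absorbs dietary vitamin K and makes some Gla proteins of its own.

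The paralogues differ in the sequence in front of their transcripts, which is shown as a description. Its part in the levels of Vkorc1l1 and Vkorc1 was not tested. The sequences are RefSeq promoter sequences of GRCm38.p6, 5′ to 3′ on the strand of the gene, and are cut where the first annotated transcript begins. Capitals mark GC boxes (GGGCGG or CCGCCC) and CCAAT boxes (CCAAT or ATTGG), searched on both strands. The stretch of Vkorc1l1 is chr5:129941859-129941969 on the plus strand and that of Vkorc1 is chr7:127895659-127895867 on the minus strand.
Vkorc1l1: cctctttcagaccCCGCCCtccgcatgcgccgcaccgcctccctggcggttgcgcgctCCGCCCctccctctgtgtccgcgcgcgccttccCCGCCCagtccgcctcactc
Vkorc1: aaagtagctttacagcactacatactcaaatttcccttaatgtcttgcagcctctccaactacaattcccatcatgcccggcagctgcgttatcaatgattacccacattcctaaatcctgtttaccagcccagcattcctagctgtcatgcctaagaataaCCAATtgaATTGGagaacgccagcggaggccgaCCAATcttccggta

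The 111 bases of Vkorc1l1 hold 3 GC boxes and no CCAAT box, and the 209 bases of Vkorc1 hold 3 CCAAT boxes and no GC box. Over the full 250 bases before the RefSeq start, part of which is transcribed in other annotated transcripts, Vkorc1l1 had 81.2% G or C, more than 99.1% of the 32851 RefSeq promoters searched, whose median was 52.4%. It held 40 CpG dinucleotides in that window, against 9 for Vkorc1, 18 for Ggcx and a median of 6. Vkorc1l1 had 5 GC boxes in the window, a number reached by 1.93% of promoters, while Vkorc1 and Ggcx had 1 each and 32.7% of promoters had at least 1. CCAAT boxes numbered 3 in Vkorc1, 1 in Vkorc1l1 and 0 in Ggcx, and 33.8% of promoters held one. The letters TATAAA, present in 12.4% of promoters, were in none of the 3 windows. These matches describe the letters only, and no factor binding was measured.

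Vkorc1l1 (ENSMUSG00000066735) lies at chr5:129941970-129986692 on the plus strand of GRCm38, with 5 annotated transcripts, and was higher in every Vil-Cre:NDI1 mouse than in any control. Values are normalized counts, that is, reads assigned to a gene divided by the size factor of the library. The Vil-Cre libraries 1 to 5 gave 350, 346, 368, 310.4 and 314 normalized counts. The Vil-Cre:NDI1 libraries 1 to 5 gave 603, 623, 561, 511 and 488. All control libraries lay below all NDI1 libraries, and the lowest NDI1 library was 121 normalized counts, or 1.33 times, above the highest control. Such a lack of overlap with NDI1 mice higher was found for 0.406% of the 14301 rows tested, and nothing is read from it for Vkorc1l1, whose choice used this contrast.

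**Figure D1:**
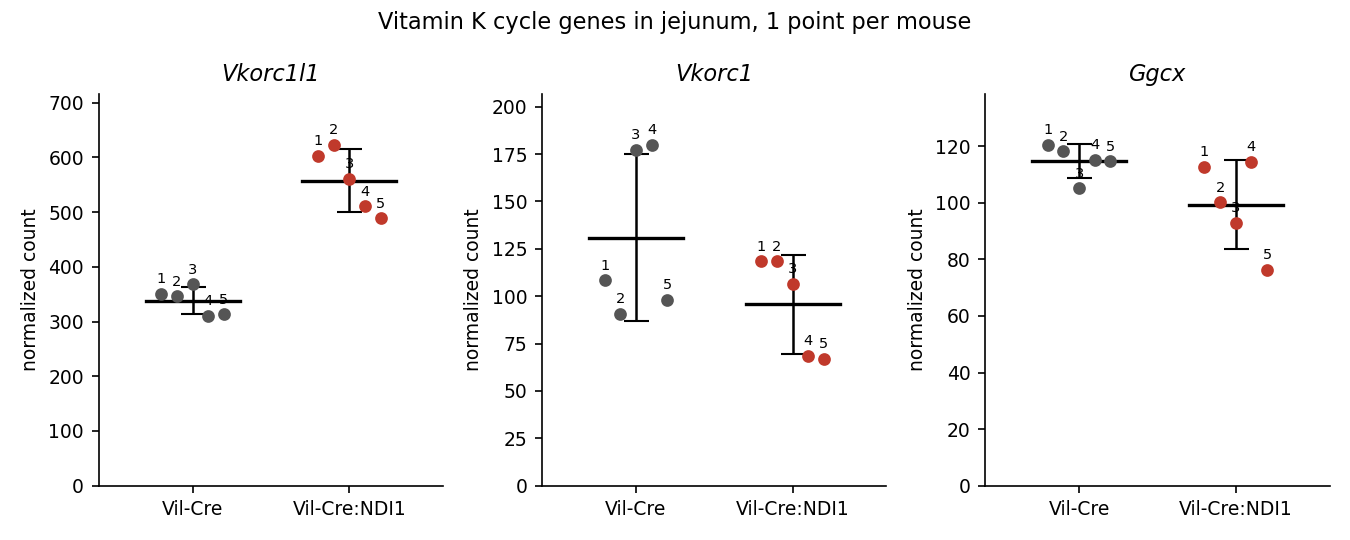
Normalized counts (vertical axes, starting at 0) of Vkorc1l1, Vkorc1 and Ggcx in the 5 Vil-Cre (grey) and 5 Vil-Cre:NDI1 (red) mice. Each numbered point is 1 library, thick lines are means and error bars are SD. The groups are apart for Vkorc1l1, where the highest control is at 368 and the lowest NDI1 library at 488, and overlap for Vkorc1 and Ggcx.

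The mean of Vkorc1l1 was 338 ± 24.7 normalized counts in Vil-Cre mice and 557 ± 57.7 in Vil-Cre:NDI1 mice (SD, n = 5 each), a ratio of 1.65. On the log2(normalized count + 1) scale the difference was 0.72, with a standard error of 0.09 and a 95% interval of 0.51 to 0.93 from limma. This difference chose the gene, so it supports nothing further. The values rest on 307 to 684 reads per library. The coefficient of variation was 7.33% among controls and 10.4% among NDI1 mice, where counting error alone would give 5.44% and 4.21%. The within-group SD of Vkorc1l1 was 0.13 on the log2 scale, and the median over all genes tested was 0.29. A choice by the smallest p-value also favours a small SD, so nothing is read from this. The median difference of all genes tested was 0.0052. Leaving out any 1 mouse kept the difference between 0.68 and 0.76.

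Reads of Vkorc1l1 could be shared with few other loci. Of its 5318 distinct 31-base words, 426 (8.01%) also occur in another annotated transcript, most of them, 395, in the processed pseudogene Gm5417. Gm5417 itself averaged 6.09 normalized counts in controls and 3.56 in NDI1 mice and never exceeded 12 reads. Another pseudogene with shared words, Gm28923, had no read in any library. RP23-189N6.2 and RP23-189N6.3, which overlap Vkorc1l1 on the same strand, had at most 8 reads in any library. All of these levels are small beside the 307 or more reads of Vkorc1l1. They are counts after assignment, so they cannot show from which locus the reads of shared words came.

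Vkorc1 (ENSMUSG00000096145, chr7:127893063-127895617, minus strand, 3 transcripts), the paralogue with the main role in the liver, was not called different between the genotypes. The Vil-Cre libraries 1 to 5 had 108, 90.8, 177, 180 and 98.1 normalized counts. The Vil-Cre:NDI1 libraries 1 to 5 had 119, 118, 107, 68.6 and 66.9. The groups overlapped, with 2 controls far above the rest and 2 NDI1 libraries below every control.

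The mean of Vkorc1 was 131 ± 44.0 normalized counts in Vil-Cre mice and 95.8 ± 26.1 in Vil-Cre:NDI1 mice (SD, n = 5 each). The log2 difference was -0.43 with a standard error of 0.26 and a 95% interval of -0.99 to 0.13, and the adjusted p from limma was 0.998. The two-sided exact permutation test of the means gave p = 0.151, unchanged when adjusted over Vkorc1 and Ggcx, where 5 mice against 5 can reach 0.00794. The scatter among mice, with a coefficient of variation of 33.6% in controls and 27.2% in NDI1 mice, was larger than the 8.74% and 10.1% that counting error would give at 57 to 178 reads. The size of the difference rested on the controls 3 and 4: on recovered reads DESeq2 gave -0.45 on the log2 scale with them and -0.046 without both, a choice made after seeing the data (adjusted p 0.831 and 0.976). An overlapping readthrough gene on the same strand, Gm21974, holds all 372 of the 808 words of Vkorc1 (46.0%) that are shared with another gene. Gm21974 was listed at 0 reads in every library, and from which gene the reads of shared words came cannot be told. The longest run of bases common to the transcripts of Vkorc1l1 and Vkorc1 was 12, so reads of one paralogue do not match the other.

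Ggcx (ENSMUSG00000053460, chr6:72414308-72430712, plus strand, 5 transcripts), the carboxylase, varied little among the controls. The Vil-Cre libraries 1 to 5 had 121, 118, 105, 115 and 115 normalized counts. The Vil-Cre:NDI1 libraries 1 to 5 had 113, 100.2, 93.0, 115 and 76.3. The groups overlapped, and 3 of the NDI1 libraries lay below the lowest control.

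The mean of Ggcx was 115 ± 5.85 normalized counts in Vil-Cre mice and 99.4 ± 15.7 in Vil-Cre:NDI1 mice (SD, n = 5 each). The log2 difference was -0.22 with a standard error of 0.14 and a 95% interval of -0.52 to 0.083, and the adjusted p from limma was 0.998. The two-sided exact permutation test gave p = 0.0556, or 0.111 adjusted over Vkorc1 and Ggcx. Without Vil-Cre:NDI1 5 alone the log2 difference was -0.13, and leaving out any other mouse gave -0.27 to -0.20. At 65 to 129 reads per library, counting error would give a coefficient of variation of 9.33% in controls and 9.97% in NDI1 mice, and the observed values were 5.10% and 15.8%. Other genes shared 1.47% of the 31-base words of Ggcx. Neither Vkorc1 nor Ggcx was called at an adjusted p of 0.05, a rule that called 0.00699% of the 14301 rows tested, which is NDI1 alone. They were not called by edgeR on recovered reads either, which called 0.007% of 14290 genes.

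Levels of different genes were compared per kilobase of exon, since longer transcripts collect more reads. In control jejunum Vkorc1 stood highest of the 3, at 156 ± 52.4 normalized counts per kilobase, followed by Vkorc1l1 at 64.2 ± 4.70 and Ggcx at 35.4 ± 1.80 (SD, n = 5). Neighbours in this order did not overlap, since Vkorc1 ranged from 108 to 214 and Vkorc1l1 from 59.0 to 69.9, and Ggcx reached at most 37.2. These levels placed Vkorc1, Vkorc1l1 and Ggcx above 78.0%, 58.8% and 44.1% of the genes tested. In Vil-Cre:NDI1 mice Vkorc1 was at 114 ± 31.1 and Vkorc1l1 at 105.9 ± 10.96 normalized counts per kilobase, and their ranges, 79.7 to 141 and 92.8 to 118, overlapped. Ggcx remained the lowest there, at 30.6 ± 4.83.

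**Figure D2:**
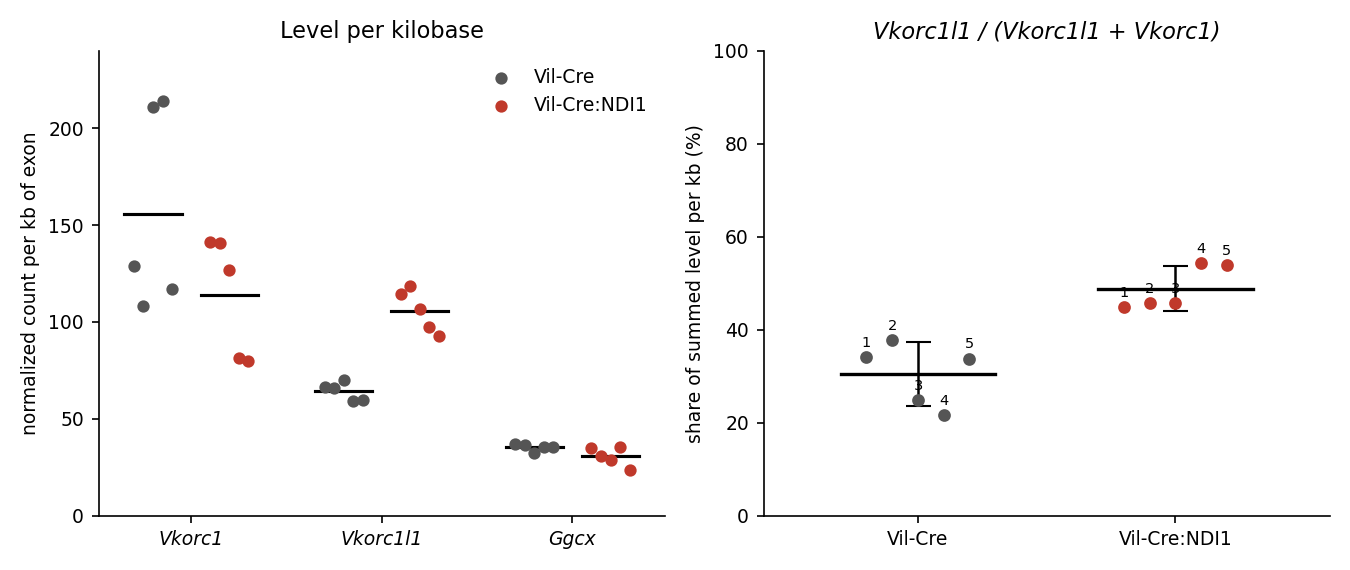
Left, normalized counts per kilobase of exon (vertical axis) of the 3 genes in each Vil-Cre (grey) and Vil-Cre:NDI1 (red) library, with lines at the means. Right, the share of the summed Vkorc1l1 and Vkorc1 level that came from Vkorc1l1 (percent, 0 to 100), with means and SD; the shares run from 21.6% to 37.8% in controls and from 44.8% to 54.3% in NDI1 mice.

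The balance of the reductases differed between the libraries of the genotypes. Vkorc1l1 made up 34.0%, 37.8%, 24.9%, 21.6% and 33.8% of the summed level of both reductases per kilobase in the controls 1 to 5. In the Vil-Cre:NDI1 libraries 1 to 5 its share was 44.8%, 45.7%, 45.7%, 54.3% and 53.8%. The shares did not overlap, with means of 30.4% ± 6.85 and 48.9% ± 4.79 (SD, n = 5 each), which is a description because Vkorc1l1 entered the ratio with the values that chose it. The ratio of Vkorc1l1 to Vkorc1 per kilobase was 0.448 ± 0.139 in controls and 0.969 ± 0.191 in NDI1 mice. The sum of both was 220.02 ± 52.9 normalized counts per kilobase in controls and 219.9 ± 41.8 in NDI1 mice. In the controls 1 to 5 the sum was 196, 174, 281, 273 and 176, so its mean rested on the controls 3 and 4. Among the NDI1 mice the sum ran from 172 to 259. With the length of the longest transcript in place of all exons the ratios were 0.437 and 0.945.

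The other genes of vitamin K handling were taken as lists by function. Of 51 genes in 5 lists, 40 passed the filter and none was called in either direction (limma, lowest adjusted p 0.998), and 0 of the 40 had an unadjusted p under 0.05, where 4.24% of all rows tested did. Of the 40, 29 had a log2 difference above 0 and 11 below, with a median of 0.092, while 51.2% of all rows tested were above 0. The groups overlapped for all 40, whereas they did not for 0.699% of all rows tested. By DESeq2 on recovered reads, 1 listed gene was called, F2, which the filter had left out, and DESeq2 called 0.183% of the 16976 genes it tested.

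**Figure D3:**
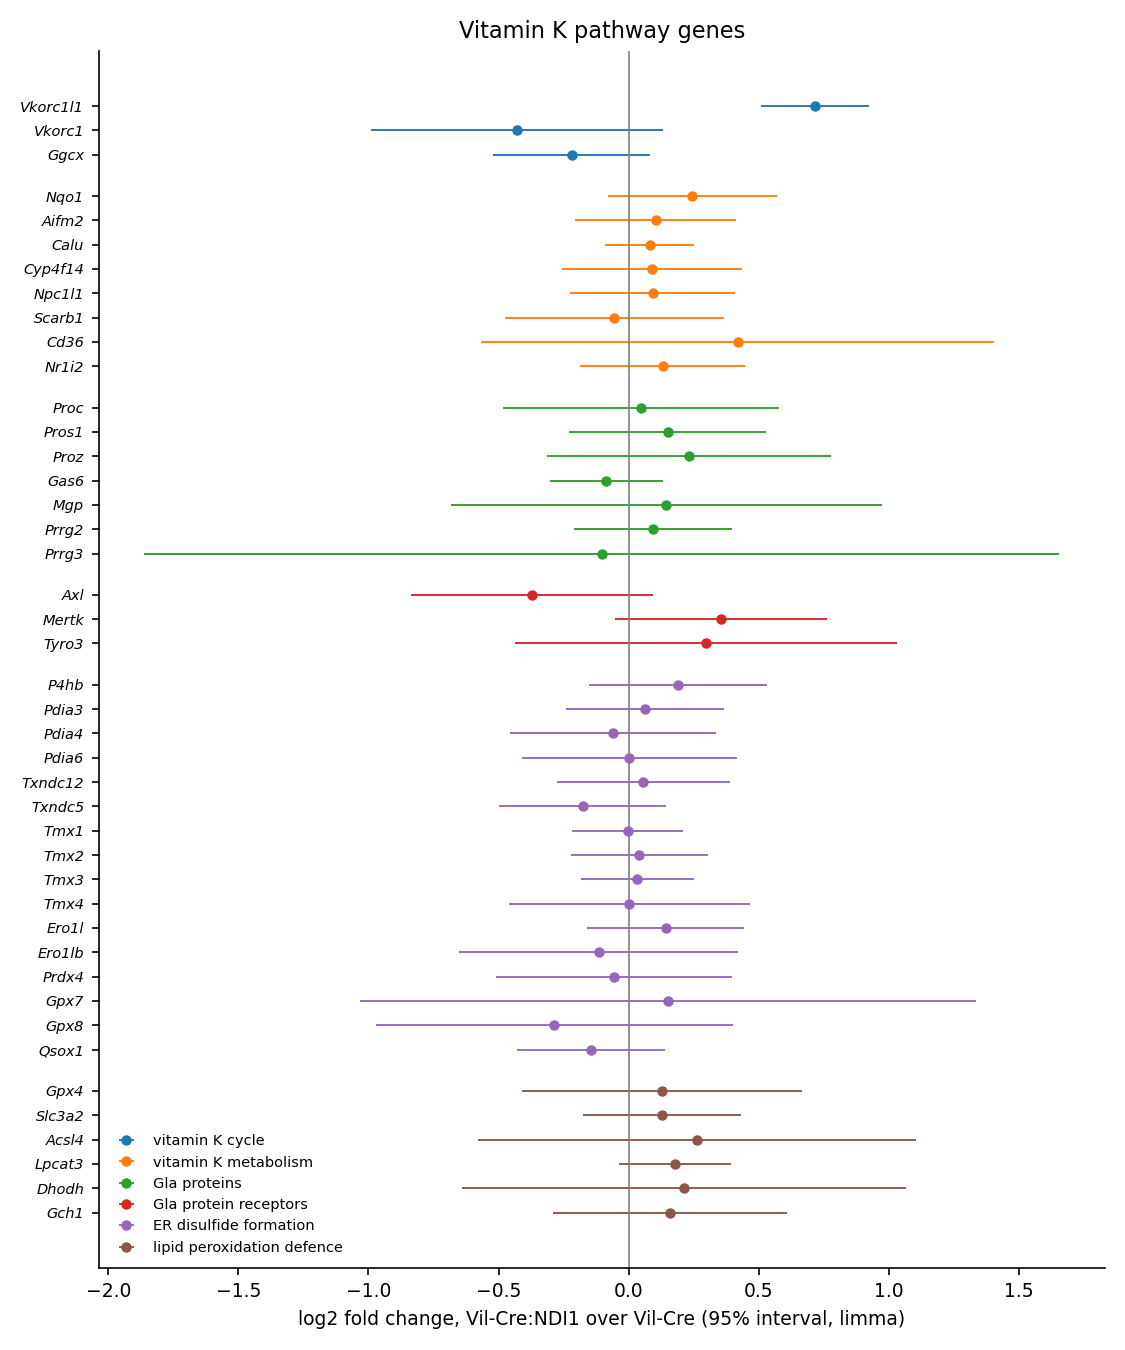
Difference between Vil-Cre:NDI1 and Vil-Cre mice on the log2(normalized count + 1) scale (horizontal axis) for the vitamin K cycle genes and the listed genes that passed the filter, with 95% intervals from limma; colours mark the lists. Vkorc1l1 was chosen by this difference, so its interval of 0.51 to 0.93 is a description; the intervals of all other genes drawn include 0.

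Among the genes that absorb, reduce or modify vitamin K, all 8 of 8 passed the filter, with 7 log2 differences above 0, 1 below and a median of 0.098. Nqo1, a cytosolic quinone reductase that can act on vitamin K, averaged 201 ± 42.2 normalized counts in Vil-Cre and 235 ± 21.3 in Vil-Cre:NDI1 mice. Aifm2, which encodes FSP1, a membrane oxidoreductase that reduces vitamin K, averaged 128 ± 20.8 and 137 ± 13.6. The log2 differences of Nqo1 and Aifm2, 0.25 and 0.10 with standard errors of 0.15 and 0.14, did not pass the test. Calu encodes calumenin, an endoplasmic reticulum protein that inhibits the carboxylase, and was at 1323 ± 87.8 and 1400.4 ± 106 normalized counts. The sterol transporter Npc1l1, which also takes up vitamin K, averaged 14470.0 and 15595 normalized counts, and Cyp4f14, a cytochrome P450 of the family that hydroxylates the vitamin K side chain, 16381 and 17551. Per kilobase of exon, Npc1l1 and Cyp4f14 were at 3239 and 6772 normalized counts in controls, above Nqo1 at 130 (129.6) and Calu at 284. Cd36, a fatty acid transporter, averaged 1054 ± 634 and 1266 ± 480.5 normalized counts, and Scarb1, a lipoprotein receptor, 58.2 ± 5.04 and 57.3 ± 14.4. The log2 difference of Cd36, 0.42, had a standard error of 0.45, and those of Scarb1 and of Nr1i2, which encodes the nuclear receptor PXR, were -0.05 and 0.13.

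The clients of the carboxylase were partly expressed. Of 17 Gla protein genes, 7 passed the filter, 5 with a log2 difference above 0 and 2 below, and a median of 0.093. Gas6, the Gla ligand of the TAM receptors, averaged 1035 ± 100.4 normalized counts in Vil-Cre and 976 ± 111 in Vil-Cre:NDI1 mice, a log2 difference of -0.09 with a standard error of 0.10. Prrg2, a transmembrane Gla protein, averaged 401 and 429, and Pros1, which encodes protein S, 233 and 256. Proz, encoding protein Z, averaged 159 and 184, and Mgp, the matrix Gla protein that inhibits calcification, 123 and 122. Proc, encoding protein C, stayed near 26.1 and 26.4. The receptors of Gas6 and protein S all passed the filter: Mertk averaged 2280 ± 643 and 2838 ± 361, Axl 217 ± 52.6 and 169 ± 47.8, and Tyro3 75.0 ± 31.2 and 90.4 ± 31.4, with log2 differences of 0.36, -0.37 and 0.30. None of the receptors passed the limma test.

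Of the 10 Gla protein genes below the filter (F2, F7, F9, F10, Bglap, Bglap2, Bglap3, Ucma, Prrg1 and Prrg4), F2, which encodes prothrombin, had the highest normalized count in a single library. F2 had 31.8, 9.85, 17.0, 3.03 and 27.2 normalized counts in the Vil-Cre libraries 1 to 5, and 1.96, 0.911, 5.81, 2.94 and 1.17 in the Vil-Cre:NDI1 libraries. Vil-Cre 4 lay inside the range of the NDI1 mice. DESeq2 on recovered reads gave a log2 difference of -2.79 with a standard error of 0.71 and an adjusted p of 0.0489, and limma without the filter gave -2.22 with an adjusted p of 0.867. Hepatocyte markers, when summed, followed the order of F2 among the controls but not among the NDI1 mice. Their 8 genes summed to 1280, 156, 606, 54.6 and 943 normalized counts in the controls 1 to 5. In the NDI1 mice 1 to 5 the sums were 73.5, 59.2, 99.7, 104 and 126. Each of the 8 had a read in some library. All 3 hepatocyte markers that passed the filter, Alb, Serpinc1 and Ambp, had log2 differences below 0. Their part in the values of F2 was not tested.

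The reductases take electrons from proteins with thioredoxin folds, and the 16 genes of disulfide formation in the endoplasmic reticulum all passed the filter. Of these, 9 had a log2 difference above 0 and 7 below, with a median of 0.0031 and a range of -0.29 to 0.19. P4hb, which encodes protein disulfide isomerase, averaged 23624 normalized counts in Vil-Cre and 26676 in Vil-Cre:NDI1 mice. Pdia3, an isomerase for glycoproteins, averaged 4562 and 4813, and Txndc5 1955 and 1761. Vitamin K hydroquinone is also a radical-trapping antioxidant, and 8 genes of lipid peroxidation and of the defence against it were listed. Among the 8, Acsl4 activates polyunsaturated fatty acids and Lpcat3 puts them into phospholipids, which is not a defence. Of the 8, 7 passed the filter, all with log2 differences above 0 and a median of 0.16. These included Gpx4, the phospholipid hydroperoxidase, at 2864 ± 673 and 3267 ± 1388 normalized counts, Slc3a2, a subunit of the cystine transporter, at 4213 ± 707 and 4580 ± 602, and the lipid remodelling enzyme Lpcat3 at 3343 ± 234 and 3803 ± 491. None of the 7 was called. All 8 enterocyte markers also had log2 differences above 0 and all 6 goblet cell markers below 0. The part of such shifts in the values of the lists was not tested.

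Most genes around Vkorc1l1 on chromosome 5 had differences nearer to 0 than the 0.72 of Vkorc1l1. That value chose Vkorc1l1, so nothing is read from this. The annotation lists 50 genes in the table within 1 Mb on either side, of which 24 passed the filter, 11 with a log2 difference above 0 and 13 below, and a median of -0.01. At an unadjusted p under 0.05 there were 3 of the 24, Tmem248, Gbas and Sbds, against 4.24% of all rows tested (limma). None of the 24 was called after adjustment. The nearest, Gusb, a lysosomal glucuronidase gene 2319 bases from Vkorc1l1, averaged 230.2 and 226 normalized counts. Asl, the urea cycle enzyme argininosuccinate lyase, 24566 bases away, had a log2 difference of -0.34 with a standard error of 0.26. The groups did not overlap for 1 of the 24, Tmem248, which is 4.17% against 0.699% of all rows tested.

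**Figure D4:**
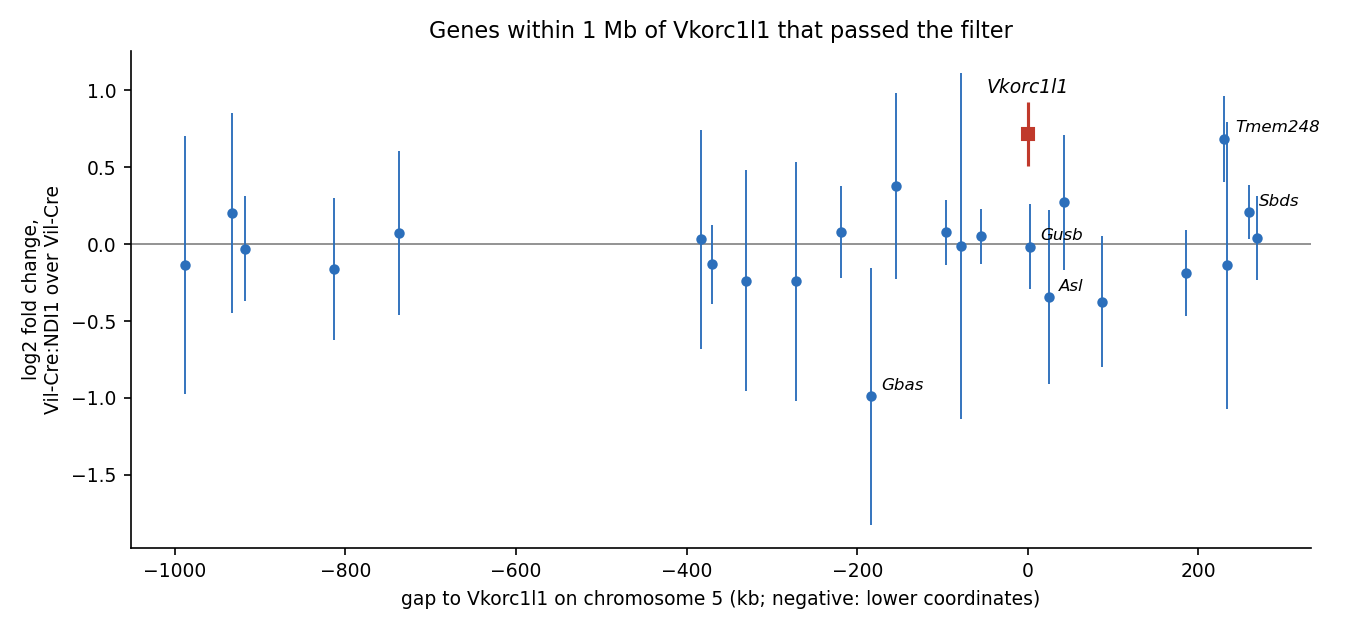
Log2 difference between the genotypes (vertical axis, with 95% intervals from limma) of Vkorc1l1 (red square) and of the 24 genes within 1 Mb that passed the filter (blue), by their gap to Vkorc1l1 in kilobases (horizontal axis). Most neighbours lie near 0, and Tmem248 and Gbas lie apart above and below.

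Tmem248, which encodes a transmembrane protein, lies 230389 bases from Vkorc1l1. It had 297, 414, 303, 435 and 297 normalized counts in the Vil-Cre libraries 1 to 5 and 588, 528, 571, 505 and 581 in the Vil-Cre:NDI1 libraries. Its log2 difference was 0.69 with a standard error of 0.13. Like Vkorc1l1 it was higher in every NDI1 mouse than in any control. Gbas, a mitochondrial protein gene 183643 bases away on the other side, had 723, 899.5, 317, 1048.5 and 1196 normalized counts in the controls and 303, 328, 872, 297 and 323 in the NDI1 mice. The Gbas values fell at 2 levels, 297 to 328 in 5 libraries and 723 to 1196 in the other 5, and each level held mice of both genotypes, 1 control and 4 NDI1 mice at the lower and the reverse at the higher.

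**Figure D5:**
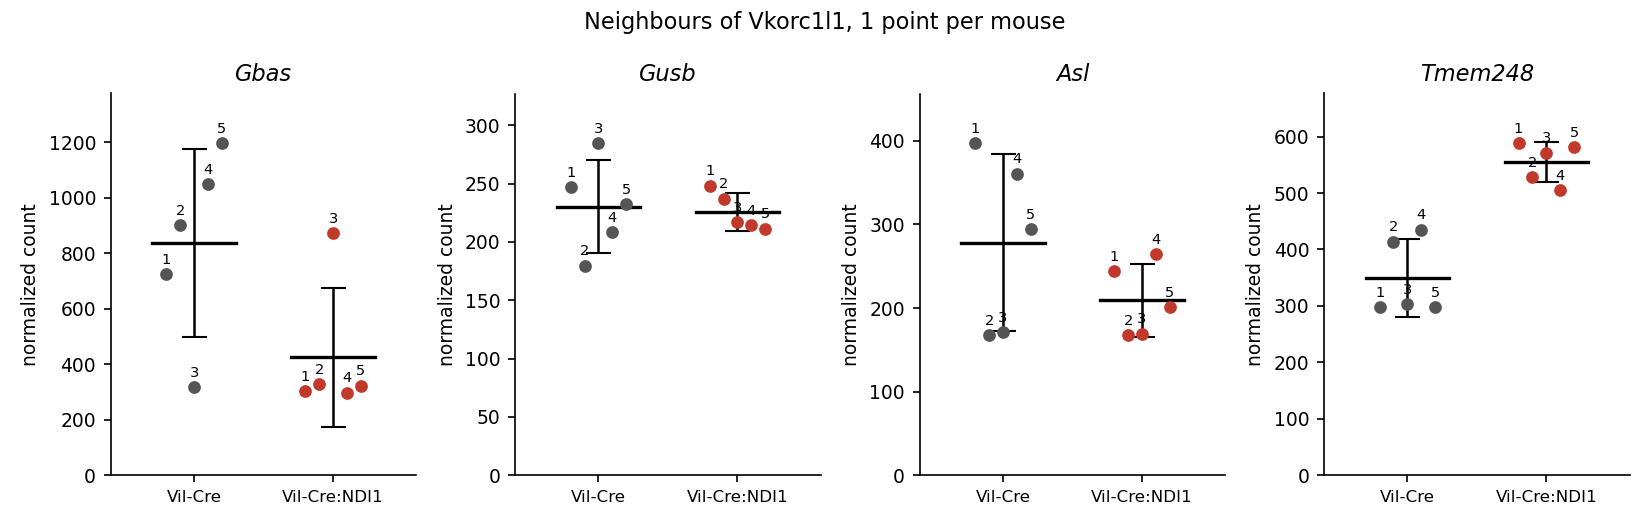
Normalized counts (vertical axes, starting at 0) of 4 neighbours of Vkorc1l1 in each Vil-Cre (grey) and Vil-Cre:NDI1 (red) mouse, with means and SD. Tmem248 is separated by genotype, from 297 to 435 and from 505 to 588, Gbas falls at 2 levels that cross the genotypes, and Gusb and Asl overlap.

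The genes whose pattern over the 10 libraries was most like that of Vkorc1l1 were ranked by Pearson's r on log2(normalized count + 1), as a description over points that share libraries and the genotype difference. They were NDI1 (r = 0.95), Specc1l (0.95), Malat1 (0.89), Pgap3 (0.88) and Acot6 (0.88). Vkorc1l1 was chosen for its genotype difference, so a high r with NDI1 followed from that choice. With the genotype means removed, r with NDI1 was 0.11, and within the Vil-Cre:NDI1 mice it was -0.24. For Specc1l, Malat1, Pgap3 and Acot6, r with the means removed was 0.85, 0.72, 0.86 and 0.63. Specc1l, a cytoskeletal protein gene, ranged from 2355 to 2440.5 normalized counts in controls and from 2457 to 2673 in NDI1 mice, a log2 difference of 0.11 beside the 0.72 of Vkorc1l1. When the mean of each genotype was removed first, the 5 most alike were Cmc2 (r = 0.94), Nme2 (0.92), Rps16-ps2 (0.92), Arhgap10 (0.91) and Mmrn1 (0.90). No gene was in both lists.

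NDI1 itself had 0 reads in 4 controls and 1 read in control 3, and 1002 to 2659 reads in the Vil-Cre:NDI1 mice. Reads on genes numbered 10145705 to 11648074 per control library and 10313793 to 12371530 per NDI1 library. All 8 enterocyte markers were detected in every library, and their sum ran from 285742 to 467745 normalized counts in controls and from 434182 to 577380 in NDI1 mice, with all 8 log2 differences above 0 (median 0.23) and none called. The 6 goblet cell markers summed to 85521 to 113022 and 66803 to 98473, with all 6 log2 differences below 0 (median -0.21) and none called. Of the other markers that passed the filter, all 6 of T cells and all 5 of B and plasma cells were below 0, as were 5 of 6 of smooth muscle, 5 of 6 of endothelium and fibroblasts and 2 of 5 of adipocytes. The part of these shifts in the values of Vkorc1l1 and of the listed genes was not tested.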

How the data were processed

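RNA sequencing of jejunum was compared between 5 Vil-Cre and 5 Vil-Cre:NDI1 mice. Per the study's methods, the authors ran nf-core/rnaseq on single-end reads: trimming by trimGalore!, alignment by STAR to a GRCm38 genome extended by NDI1, and gene assignment by Salmon. The values deposited by the authors are a signal, gene counts divided by DESeq2 size factors. The annotation release and strand setting are not given in the sources used here. No per-sample column was left unused (0).

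Dividing each library by its smallest value above 0 gave whole reads for 100% of entries (tolerance 0.1). For Vil-Cre 3 and 4 this step was too near 1 to decide, so tests on recovered reads were repeated on the other 8 libraries. Replicates differed by far more than sampling noise, so none was counted as a duplicate.

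Rows that reached a normalized count of 10 in 5 or more libraries were tested with limma 3.58.1 (R 4.3.3; trended variance) after a log2(value + 1) transform, which understates changes of low genes, and p-values were adjusted by Benjamini and Hochberg's method (threshold 0.05). DESeq2 1.42.0 and edgeR 4.0.16 on recovered reads, other pseudocounts, filters and scaling, a replicate block and leaving out each mouse were alternatives. The code was tested on simulated data. Gene positions, exon lengths and 31-base words came from GENCODE M21, in which 45143 of the 45707 identifiers were found, and promoters from RefSeq. Mice of the same replicate number did not deviate together, and the labels give no litter.

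The members and lists were chosen with earlier results of these data known, and 1 gene of the lists is not reported here. Named are the members, genes of the lists, genes within 1 Mb of Vkorc1l1 and the 5 genes most like it by each measure; in the disulfide and lipid peroxidation lists, values are given for the 3 with the highest mean count. F2, named for its call by DESeq2, the markers named beside it, Acsl4, Dhodh and Zbed5 were singled out after their values were seen. The precision of single values is set by the reads given beside them, and counting error covers sampling of reads only.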

Additional observations from a re-analysis of the deposited data

Results flagged for a closer look

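Within a genotype, 1 library stood far from the other 4 (gap over range above the Dixon critical value of 0.71) in 12 of 134 groups of 5. For normally distributed values, chance alone gives 6.7. The gaps were taken on normalized counts without a log transform, so 6.7 is a rough guide and no excess is read from it. The groups were those of the 67 genes that passed the filter among the vitamin K cycle genes, the 5 lists and the neighbours of Vkorc1l1. None was a group of Vkorc1l1, Vkorc1 or Ggcx. Among the Gla proteins, Prrg3, a transmembrane Gla protein gene, was at 118 normalized counts in Vil-Cre:NDI1 4 and at 3.92 to 19.95 in the other NDI1 mice. In the disulfide list, Pdia3 was at 3616 in Vil-Cre 3 beside 4708 to 4956 and at 6558 in Vil-Cre:NDI1 4 beside 3950 (3949.6) to 4662. In the lipid peroxidation list, Acsl4, an acyl-CoA synthetase gene, was at 251 in Vil-Cre:NDI1 2 beside 54.8 to 66.8, and Dhodh, a pyrimidine synthesis gene, was at 221 in Vil-Cre:NDI1 4 beside 41.2 to 93.0. The other 7 were neighbours of Vkorc1l1. Gbas was at 872 in Vil-Cre:NDI1 3 beside 297 to 328. Mmp17, a matrix metalloproteinase gene, was at 120 (119.6) in Vil-Cre 1 beside 39.4 to 51.1, and Rimbp2 was at 68.6 in Vil-Cre:NDI1 4 beside 22.3 to 34.3. Ran, a nuclear transport GTPase gene, was at 1836 in Vil-Cre 5 beside 1020 to 1233 and at 1485 in Vil-Cre:NDI1 4 beside 1101 to 1198. Mrps17, a mitochondrial ribosomal protein gene, was at 278 in Vil-Cre 5 beside 183 to 202 and at 272 in Vil-Cre:NDI1 5 beside 197 to 219. Leaving out Vil-Cre:NDI1 4 or Vil-Cre:NDI1 5 kept the direction of the difference of all 3 vitamin K cycle genes. For Vkorc1l1, which was chosen by that difference, nothing is read from this.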

How the results depend on the processing

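The differences of Vkorc1l1 (0.66 to 0.76 on the log2 scale), Vkorc1 (-0.54 to -0.05) and Ggcx (-0.28 to -0.13) kept their direction under 20 alternatives each, and neither Vkorc1 (adjusted p 0.831 to 1.00) nor Ggcx (0.675 to 1.00) was called under any. Rows called numbered 2 at a normalized count of at least 50 (NDI1 and Vkorc1l1), 31 with DESeq2 on recovered reads (16 higher, 15 lower), 1 with edgeR and 1 to 3 when 1 mouse was left out: 2 without Vil-Cre:NDI1 1, which added Gm13304, and 3 without Vil-Cre:NDI1 5, which added Hmcn1 and Vkorc1l1. Nothing is read from the calls of Vkorc1l1 or from its kept direction, since it was chosen by this contrast. On the 8 libraries without Vil-Cre 3 and 4, chosen after seeing the data, DESeq2 called 268 (147 higher, 121 lower) and edgeR 1. Of the vitamin K genes, DESeq2 called 1 on all libraries (F2) and 2 on the 8 (F2 and Mertk, a log2 difference of 0.60 with an adjusted p of 0.0261), and the other alternatives called 0. For Mertk the adjusted p was 0.427 with edgeR on the 8 and at least 0.833 elsewhere. The cause of these differences in calls was not tested. Mice with the same replicate number did not deviate together (r from -0.116 to 0.136). This cannot show how the mice were numbered or which shared a litter. With the replicate block the difference was 0.72 for Vkorc1l1, -0.43 for Vkorc1 and -0.22 for Ggcx, with 1 row called. The mean ratio of Vkorc1l1 to Vkorc1 per kilobase over all 10 libraries was 0.655 to 0.757 with 1 mouse left out, and 1 neighbour of Vkorc1l1 had groups that did not overlap within 0.5 Mb and within 2 Mb as within 1 Mb. With 5 mice a group, the intervals of Vkorc1 and Ggcx include differences of -0.99 and -0.52. The scatter of Vkorc1 among mice exceeded counting error at its 57 to 178 reads, and the controls of Ggcx varied by less than counting error at its 65 to 129 reads.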

Other observations

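Zbed5, a gene 38347 bases from Vkorc1l1 that did not pass the filter, was present in some mice of each genotype and listed at 0 in others. It had 8.41, 0, 73.1, 0 and 6.80 normalized counts in the Vil-Cre libraries 1 to 5 and 276, 20.96, 1.94, 4.90 and 0 in the Vil-Cre:NDI1 libraries. Slc7a11, the cystine transporter subunit that also fell below the filter, had 18.7, 7.66, 11.02, 9.10 and 44.7 normalized counts in the controls 1 to 5, against 1.94 to 9.79 where NDI1 was expressed. The highest value came from Vil-Cre 5 alone, and 2 controls lay inside the range of the NDI1 mice.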
